A study of Rattus norvegicus with 35 samples.

Results

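Of 8 listed genes that p53 switches on, 6 were measured in rat liver as genes, among 14217 genes in all. The 6 are Cdkn1a, Mdm2, Ccng1, Phlda3, Gdf15 and Sesn2, with 10 probe sets of their own among the 31042 tested. Btg2 had no annotated probe set. Bax was annotated only on a probe set that also lists LOC681314, so its values are given as those of the shared probe set and not as the level of Bax. The rule for the members uses gene names and no measured values, although results of these data were known when the genes were listed.

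The livers came from male Harlan Sprague Dawley rats that were 7 weeks old when the study began. Every rat was gavaged on 5 consecutive days with corn oil at 5 ml per kg body weight, either alone as vehicle or carrying BTBPE, a brominated flame retardant, at 0.07, 0.69 or 6.88 mg/kg or at the higher doses of 68 and 680 mg/kg. The left lobe was taken on the day after the last dose and each of the 35 samples was hybridised to 1 Affymetrix array, with 6 samples in each of the 6 groups except for 5 at 68 mg/kg. The labels describe dosing of animals but do not name them, so each sample is counted as 1 rat and p-values measure the spread between these samples. All values are log2 RMA expression, whose lowest array median was 4.71, and the number of arrays limits their precision. A level near or under that median was not shown to be above background. Of the 10 hepatocyte markers listed, 9 were measured, with means from 9.36 to 14.39, all far above the lowest array median.

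p53 is a transcription factor held at a low level by constant degradation. DNA damage and other stresses stabilise it, and it then binds a paired, palindrome-like DNA element near its target genes. In rodent liver, genotoxic agents are known for raising a small shared group of targets, among them Cdkn1a, Mdm2, Ccng1 and Phlda3, so these transcripts serve as readouts of genotoxic stress. Several are also raised without p53: Gdf15 and Sesn2 through the ATF4 arm of the integrated stress response, Cdkn1a through several hormone and stress pathways.

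The p53 consensus half-site, a palindrome that reads alike on both strands, was searched in the RefSeq promoter windows of build GRCr8, which run from 250 bases before to 50 bases after each annotated start. Of the 8 windows of 7 listed genes (Gdf15 has 2 and Bax none), 2 held the half-site, against 7.98% of all 33469 windows. The matching promoters are shown because they belong to Cdkn1a and Ccng1, the only members with a match in this window. Capitals mark the half-site. The Cdkn1a stretch is the plus strand of chr20:7150682-7150819, with the half-site 89 to 80 bases before the first annotated base of the gene. The Ccng1 stretch is the minus strand of chr10:25684877-25685126, with the half-site 232 to 223 bases before the start. A match is a description of the letters, and the other windows can have elements elsewhere.
Cdkn1a: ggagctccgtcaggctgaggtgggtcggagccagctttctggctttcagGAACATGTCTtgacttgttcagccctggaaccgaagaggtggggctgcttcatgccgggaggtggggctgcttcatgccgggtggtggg
Ccng1: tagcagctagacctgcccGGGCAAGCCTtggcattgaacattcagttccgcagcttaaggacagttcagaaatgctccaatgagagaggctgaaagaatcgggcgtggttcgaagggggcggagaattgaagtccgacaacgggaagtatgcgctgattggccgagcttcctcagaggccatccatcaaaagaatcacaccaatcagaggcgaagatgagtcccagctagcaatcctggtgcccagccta

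The first question was whether any dose altered the members. None of the 6 genes differed from vehicle past the test at any dose, and every dose group overlapped the vehicle group for each of the 11 probe sets examined. Folds of vehicle lay between 0.924 and 1.14, all 30 of their 95% confidence intervals included no change, and all 30 upper ends were under 2-fold. In 28 of the 30 the upper end was also under 1.5-fold, and the highest upper end was 1.52. Limma called 0 members and 0 of 31042 probe sets at each dose (0.00% by adjusted p under 0.05), and the unmoderated analysis of variance called 0 as well. Without adjustment, limma's p was under 0.05 for 1130 probe sets (3.64%) at 0.07 mg/kg, 981 (3.16%) at 0.69, 1438 (4.63%) at 6.88, 1205 (3.88%) at 68 and 1538 (4.95%) at 680 mg/kg. Of the 11 member probe sets, 1 was under 0.05 at 680 mg/kg and 0 at the other doses. Groups did not overlap for 0.164%, 0.151%, 0.200%, 0.332% and 0.187% of all probe sets at these doses, and for 0 of the 11 member probe sets.

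**Figure D1:**
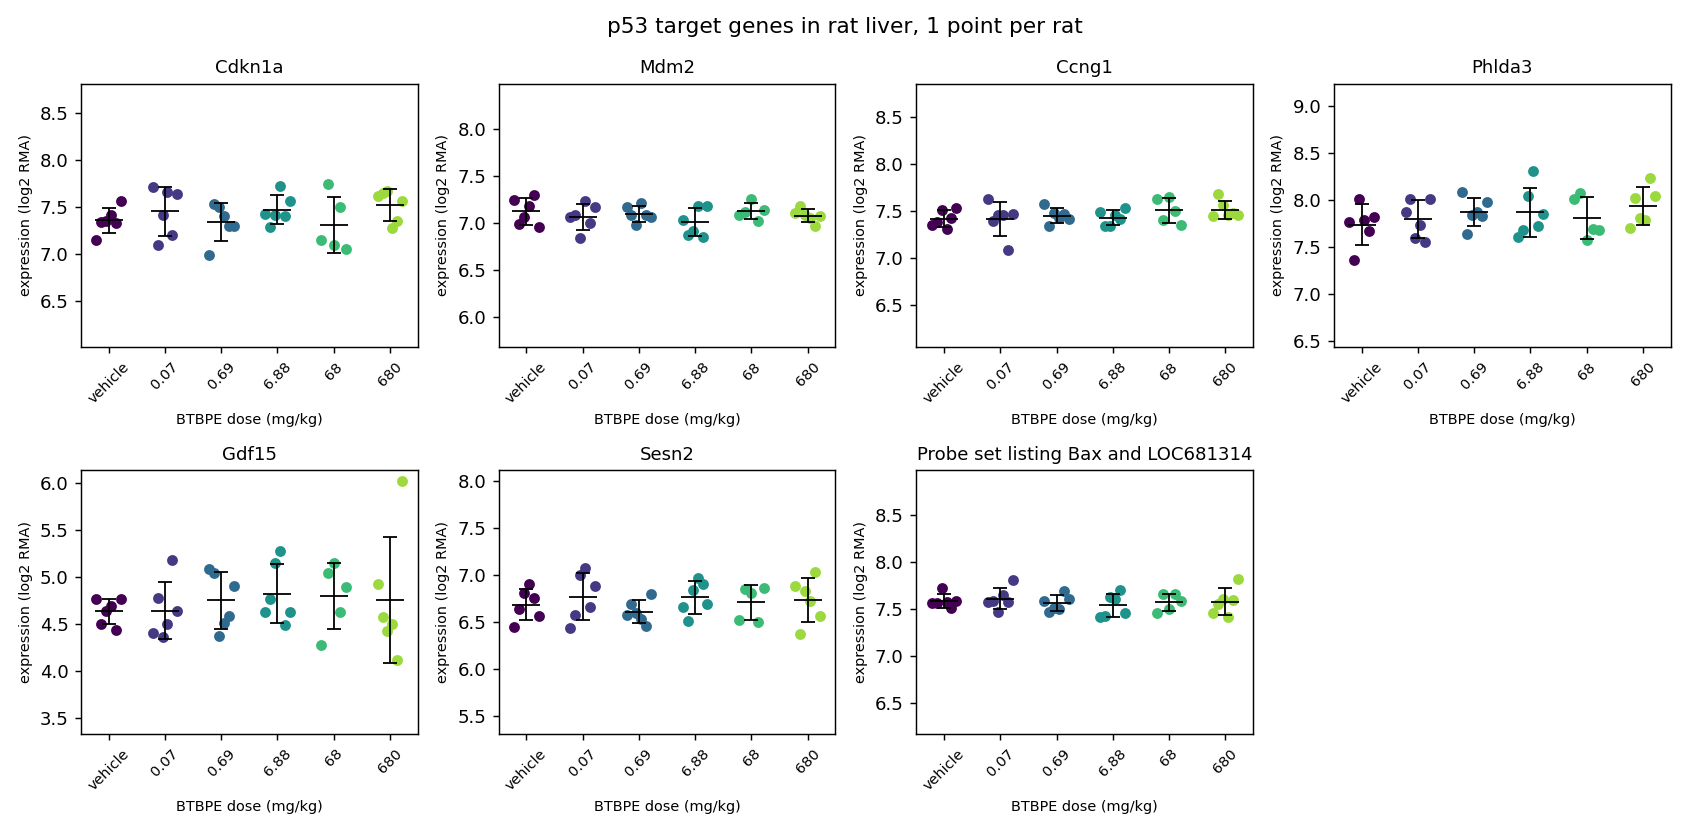
Expression (log2 RMA, each panel spanning the same range) of the 6 genes and of the probe set that lists Bax and LOC681314, by BTBPE dose in mg/kg. Points are rats, the bar is the group mean and the whiskers are 1 SD (n = 6, and 5 at 68 mg/kg). Groups overlap in each panel, and the highest Gdf15 point, 6.01, is replicate 6 at 680 mg/kg.

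Among the genes that stop the cell cycle, Cdkn1a encodes p21, an inhibitor of cyclin-dependent kinases and the classical p53 target. Its probe set with the highest signal ran from 7.15 to 7.56 in vehicle rats (median 7.34) and from 7.27 to 7.67 at 680 mg/kg (median 7.59). The ranges overlapped, and 4 of the 6 rats at 680 mg/kg were above the vehicle mean. The group means were 7.35 ± 0.13 (SD, n = 6) and 7.52 ± 0.17 (n = 6), a 1.12-fold value with an 95% confidence interval of 0.954 to 1.32 and a limma adjusted p of 0.994. At 68 mg/kg the 5 rats read 7.15, 7.75, 7.09, 7.49 and 7.05. That group held the highest Cdkn1a value of the series, and its mean of 7.31 was the lowest of all groups. The lowest single value, 6.98, was replicate 1 at 0.69 mg/kg, where the group ran up to 7.53. The ranges at 0.07 and 6.88 mg/kg were 7.09 to 7.71 and 7.28 to 7.72. From low to high the group means stood in the order 68, 0.69, vehicle, 0.07, 6.88 and 680 mg/kg, with 0.10 as the largest step between neighbours and a within-group SD of 0.21. The groups were ordered by their means, which keeps steps between neighbours small, and these steps were not tested.

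A second Cdkn1a probe set, 1387391_at, read lower, with a mean of 4.95 over all arrays. That is near the lowest array median of 4.71, so the signal was not shown to be above background. The probe set ran from 4.69 to 5.08 in vehicle rats (median 4.85) and from 4.89 to 5.39 at 680 mg/kg (median 5.30). All 6 rats at 680 mg/kg were above the vehicle mean, although 2 of them, at 4.89 and 4.91, lay within the vehicle range. The fold was 1.25 with an interval of 1.05 to 1.48, the only interval of a member probe set that excluded no change. Its unadjusted limma p was 0.0124 and its adjusted p 0.994, at a dose where 4.95% of all probe sets were under 0.05 without adjustment. At 68 mg/kg the same probe set was 1.03-fold (0.859 to 1.23), an interval that overlapped the one at 680 mg/kg. Its slope over dose rank was 0.05 per step, with an unadjusted limma p of 0.0374 and an adjusted p of 0.961. In that slope test 5.14% of all probe sets were under 0.05 without adjustment.

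Ccng1 encodes cyclin G1, a p53 target that takes part in feedback on Mdm2. Vehicle rats ran from 7.31 to 7.53 (median 7.40) and rats at 680 mg/kg from 7.44 to 7.68 (median 7.46). All 6 rats at 680 mg/kg lay above the vehicle mean of 7.42 ± 0.09, yet 4 of them were within the vehicle range. The fold was 1.07 (interval 0.969 to 1.17; limma adjusted p = 0.994). The 5 rats at 68 mg/kg read 7.63, 7.40, 7.65, 7.50 and 7.35, a mean of 7.50 and a 1.06-fold value (0.962 to 1.17). At 6.88, 0.69 and 0.07 mg/kg the folds were 1.01, 1.02 and 0.997. The lowest rat of all, at 7.08, was replicate 5 at 0.07 mg/kg. The slope over dose rank was 0.02 log2 per step (limma adjusted p = 0.973).

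Mdm2 encodes the ubiquitin ligase that degrades p53 and is itself induced by it, closing a feedback loop. Its brightest probe set, 1384427_at, ran from 6.95 to 7.30 in vehicle rats (median 7.12) and from 6.97 to 7.19 at 680 mg/kg (median 7.08). The highest-dose group lay wholly within the vehicle range, and 1 of its 6 rats exceeded the vehicle mean. The fold at 680 mg/kg was 0.970 (interval 0.880 to 1.07; limma adjusted p = 0.994). At 68 mg/kg the 5 rats read 7.09, 7.11, 7.25, 7.02 and 7.14, with a mean equal to that of vehicle at 7.12. The lowest group mean, 7.01 ± 0.15, stood at 6.88 mg/kg, 0.924-fold (0.838 to 1.02).

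Phlda3, which inhibits the kinase Akt at the membrane, had the largest fold of the 6 genes at 680 mg/kg by its brightest probe set. Vehicle rats ran from 7.36 to 8.01 (median 7.78) and rats at 680 mg/kg from 7.70 to 8.23 (median 7.92). The groups overlapped over most of their range, with 5 of the 6 treated rats above the vehicle mean of 7.74 ± 0.22. The mean at 680 mg/kg was 7.93 ± 0.20 (n = 6), 1.14-fold with an interval of 0.972 to 1.35 (limma adjusted p = 0.994). The vehicle group had the lowest mean of Phlda3, and replicate 2 of that group, at 7.36, the lowest single value. The 5 rats at 68 mg/kg fell into 8.01 and 8.07 against 7.57, 7.69 and 7.68. The folds at 0.07, 0.69, 6.88 and 68 mg/kg were 1.04, 1.10, 1.10 and 1.05. Group means differed by at most 0.20 against a within-group SD of 0.21.

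The remaining members also report on metabolic and protein stress. Sesn2 encodes sestrin 2, which restrains the growth kinase mTORC1 when amino acids are scarce. It ran from 6.46 to 6.91 in vehicle rats (median 6.70) and from 6.37 to 7.03 at 680 mg/kg (median 6.78). The treated range enclosed the vehicle range, and the fold was 1.03 (interval 0.889 to 1.20; limma adjusted p = 0.998). The 5 rats at 68 mg/kg read 6.52, 6.86, 6.82, 6.50 and 6.86. Its highest group mean, 6.77 ± 0.25 (n = 6), was at the lowest dose, 0.07 mg/kg, and its lowest, 6.61 ± 0.12 (n = 6), at 0.69 mg/kg, so the means did not follow dose.

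Gdf15 encodes a stress cytokine that acts on the brainstem to reduce food intake. Its levels lay about the array medians, with vehicle rats from 4.44 to 4.77 (median 4.66), so they were not shown to be above background in that group. At 680 mg/kg the 6 rats ran from 4.11 to 6.01 with a median of 4.54, below that of vehicle. Replicate 6 alone reached 6.01, and the next rat read 4.92. The group means were 4.63 ± 0.14 and 4.76 ± 0.67 (SD, n = 6 each), and the log2 difference of 0.13 became -0.13 without replicate 6. In that rat the other members were not jointly high: Cdkn1a was 0.04 and Phlda3 0.11 above the group mean, and Sesn2 was -0.17 from it. At 68 mg/kg the 5 rats read 4.28, 5.04, 5.15, 4.63 and 4.89. Gdf15 had the widest spread of the 6 genes, a within-group SD of 0.38, and 97.8% of the 9685 genes with a mean above the lowest array median had a smaller one.

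The probe set shared by Bax, a pore-forming protein of mitochondrial cell death, and LOC681314 ran from 7.50 to 7.72 in vehicle rats (median 7.56). At 680 mg/kg it ran from 7.41 to 7.82 (median 7.57), enclosing the vehicle range. Its fold of vehicle was 0.993 (interval 0.906 to 1.09), and over the 5 doses its group means spanned 0.07 against a within-group SD of 0.11. The reading cannot be divided between the 2 annotated genes.

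**Figure D2:**
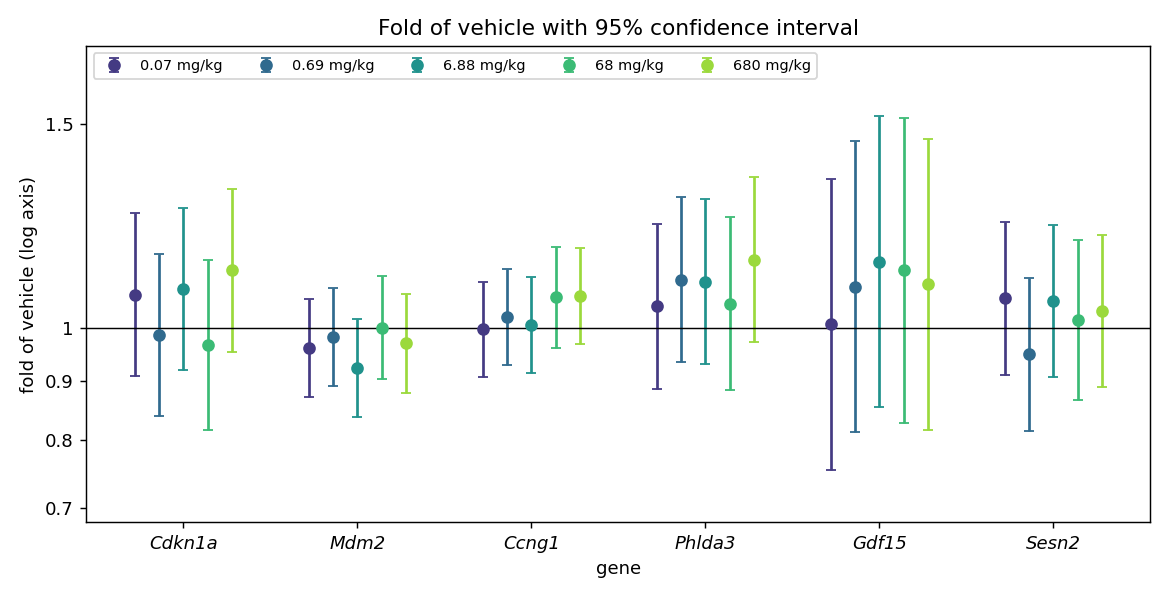
Fold of vehicle on a log axis for the brightest probe set of each gene, with points for the 5 doses and bars for the 95% confidence interval of the fit over 35 arrays. All 30 bars cross 1, and Gdf15 has the widest bars, up to 1.52.

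Read as a group, 5 of the 6 members had a mean above vehicle at 680 mg/kg, where 51.1% of all 14217 genes did. The member below vehicle was Mdm2. The counts at 68, 6.88, 0.69 and 0.07 mg/kg were 5, 5, 3 and 4 of 6, beside 51.7%, 47.0%, 46.7% and 50.6% of all genes. The doses share 1 vehicle group, so these counts are not independent of each other. Leaving out 1 rat of the compared groups at a time, the count at 680 mg/kg lay between 4 and 5, that at 68 mg/kg between 3 and 5 and that at 0.07 mg/kg between 2 and 5. A moderated F test over the 5 doses and a slope over dose rank from 0 to 5 also called 0 members and 0 of 31042 probe sets (0.00%) with limma, with 1194 (3.85%) and 1596 (5.14%) probe sets under 0.05 without adjustment. Slopes of the brightest probe sets were positive for 5 of 6 genes, from 0.0062 log2 per dose step for Sesn2 to 0.03 for Gdf15, and that of Mdm2 was -0.0047. The Gdf15 slope rested on replicate 6 at 680 mg/kg, without which it was 0.00030.

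The probe sets of 1 gene bind different stretches of its transcripts, and their agreement shows how far a small difference can be read. Deviations of the rats from their group means, taken over all 35 rats, correlated at r = 0.75 between both Cdkn1a probe sets, and 0.74 without the 2 rats farthest from the median. These probe sets had the same sign of difference from vehicle at 4 of 5 doses, and 68 mg/kg was the exception. The brightest pair of Mdm2 probe sets, 1384427_at and 1383288_at, agreed in sign at 5 of 5 doses with r = 0.36. The remaining Mdm2 probe set, 1383485_at, read higher than vehicle at all 5 doses, with folds of 1.10, 1.13, 1.09, 1.13 and 1.13 from the lowest dose to the highest. It shared the sign of the brightest probe set at 1 of 5 doses, and r was 0.15 with that one and -0.20 with 1383288_at. Its vehicle rats lay close together, from 5.20 to 5.38, while rats at 680 mg/kg ran from 5.18 to 5.80 with 3 of 6 above the vehicle mean, and limma's adjusted p was 0.994 at 680 mg/kg. The second Sesn2 probe set, 1396901_at, averaged 2.79, far under the array medians. It agreed in sign with the first at 2 of 5 doses, at r = 0.15. These correlations are descriptions, since probe sets of 1 gene share its RNA.

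**Figure D3:**
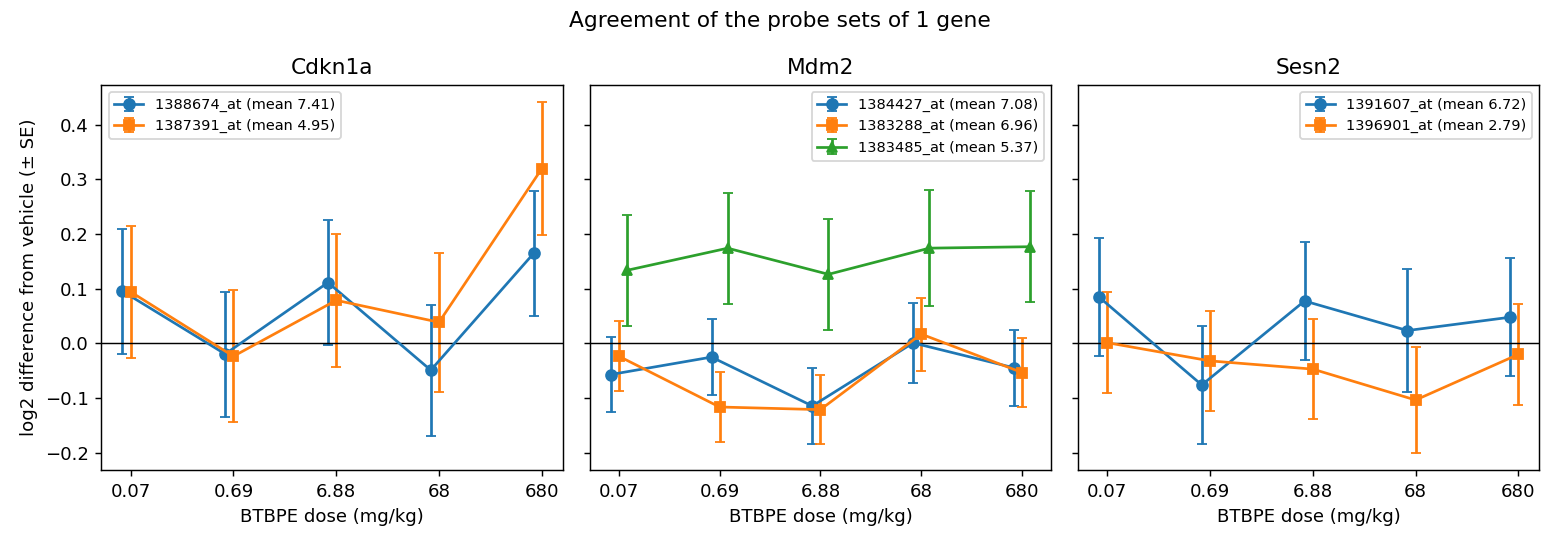
Log2 difference from vehicle at each BTBPE dose for each probe set of Cdkn1a, Mdm2 and Sesn2, with bars of 1 SE from the fit over 35 arrays and the mean level of each probe set in the legend. The Cdkn1a probe sets have the same sign except at 68 mg/kg, and at 680 mg/kg they read 0.16 (1388674_at) and 0.32 (1387391_at). The Mdm2 probe set 1383485_at stands above 0 at all 5 doses while the other 2 lie mostly below it.

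The second question was whether the members moved together among rats of the same dose. Each rat's deviation from its group mean was used, and r was computed for the 15 pairs of genes over 35 rats. No pair passed a two-sided permutation test that shuffled rats within groups. Pearson r ran from -0.34 to 0.26, with a median of 0.12, and 11 of 15 pairs were above 0, where 53.9% of all pairs among the 9685 genes above the lowest array median were. No pair of members exceeded 0.4, a value passed by 5.55% of all pairs of genes.

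The pair with the highest r was Ccng1 with Phlda3, at r = 0.26 (permutation p = 0.172) and rho = 0.22 (permutation p = 0.247), with r = 0.16 without the 2 rats farthest from the median. Adjusted over the 15 pairs, its permutation p was 0.663 for r and 0.649 for rho, and no pair had a smaller adjusted p. Cdkn1a with Ccng1, the members whose promoters are shown above, had r = 0.23 (permutation p = 0.309) and rho = 0.22 (permutation p = 0.260), and r = 0.33 without the 2 farthest rats. Cdkn1a with Mdm2 had r = 0.11 (permutation p = 0.553) and rho = 0.14 (permutation p = 0.443), and within single groups r was above 0 in 3 of 6. The most negative pair was Ccng1 with Gdf15, at r = -0.34 (permutation p = 0.0526) and rho = -0.34 (permutation p = 0.0611), below 0 in 5 of the 6 groups and -0.22 without the 2 farthest rats. Normalising the arrays to 1 common distribution again turned 4 of the 15 values in sign, among them Mdm2 with Ccng1 from 0.21 to -0.13 and Cdkn1a with Mdm2 from 0.11 to -0.07.

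Single rats were then read across the 6 members. Replicate 4 at 6.88 mg/kg was the only rat of 35 with all 6 genes above its group mean: Cdkn1a by 0.26, Mdm2 by 0.18, Ccng1 by 0.02, Phlda3 by 0.44, Gdf15 by 0.45 and Sesn2 by 0.21. In the same rat several gene list scores, each the mean over genes of the deviation in units of a gene's SD, were also high. They stood at 1.44 for Kupffer cell and macrophage markers, 1.22 for ATF4 and endoplasmic reticulum stress genes, 1.06 for stellate markers, 1.04 for other p53 targets, 0.99 for endothelial markers and 0.72 for DNA repair genes. The other list scores of this rat ran from -0.22 for blood markers to 0.51 for hepatocyte markers. The part of any list in the joint height of the members was not tested. In vehicle replicate 2, replicate 2 at 6.88 mg/kg and replicate 4 at 680 mg/kg none of the 6 was above the group mean. Replicate 2 at 6.88 mg/kg also had the largest 3 prime minus 5 prime control differences of the 35, a measure of RNA integrity and labelling. They were 1.37 for beta-actin and 0.19 for Gapdh. List scores of that rat ran from -1.66 for stellate markers to 0.35 for hepatocyte markers, with -0.79 for other p53 targets. The part of RNA quality in its low values was not tested. Replicate 2 at 68 mg/kg had the highest Cdkn1a deviation, 0.44. In that rat Phlda3, Gdf15 and Sesn2 were also above the group mean, by 0.27, 0.24 and 0.15, while Ccng1 was at -0.10 and Mdm2 at -0.0082.

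**Figure D4:**
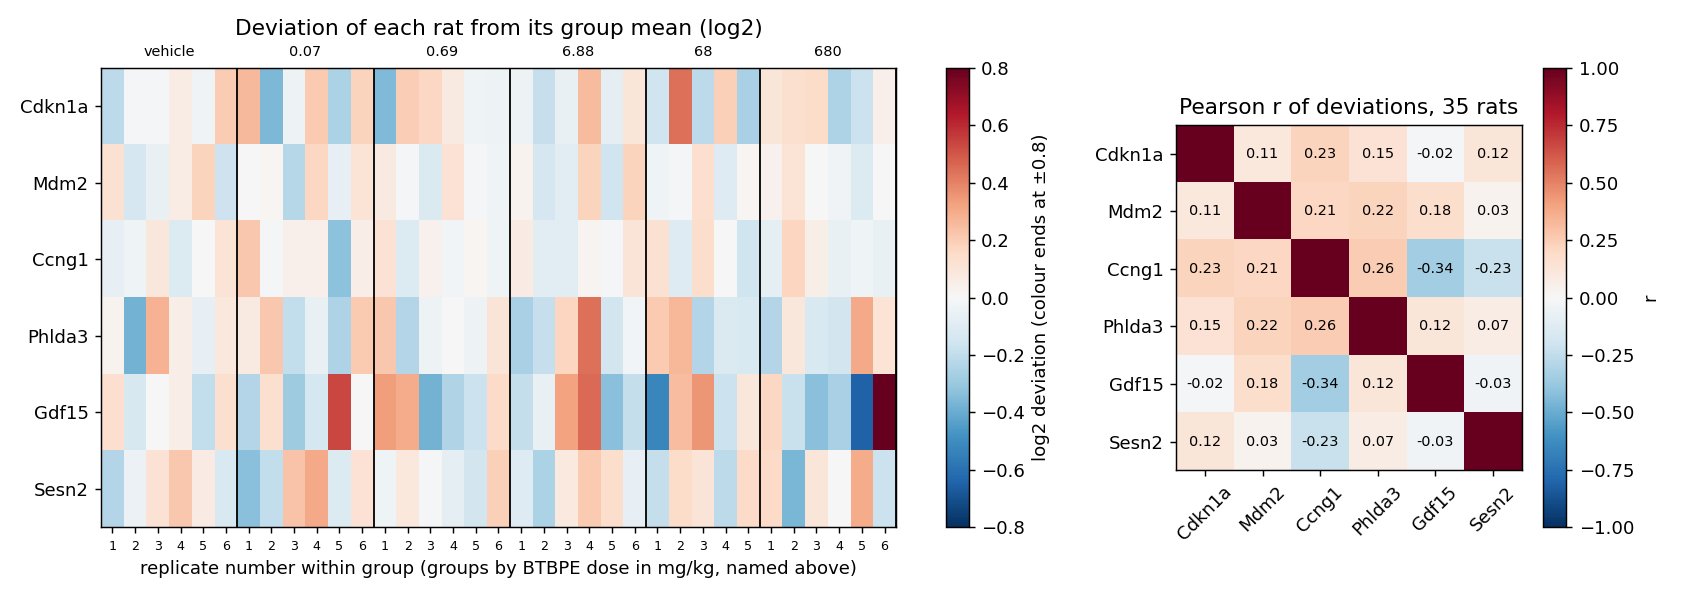
Left, deviation of each rat (columns, by group and replicate number) from its group mean for the 6 genes in log2, with colours ending at ±0.8. Right, Pearson r of these deviations over 35 rats for the 15 pairs. Values run from -0.34 to 0.26.

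Each member was then set beside the list scores of other gene groups and cell type markers, and beside RNA quality, in the same rats. These scores are means of scaled deviations and not the summed log2 levels given below. There were 96 relations in all, with 0 passing on Pearson r after adjustment. Cdkn1a went with genes of the ATF4 and endoplasmic reticulum stress response at r = 0.51 (permutation p = 0.00174, adjusted 0.124) and rho = 0.49 (permutation p = 0.00431, adjusted 0.138), above 0 in 6 of 6 groups and 0.50 without the 2 farthest rats. For the same stress genes Gdf15 had r = 0.27 (permutation p = 0.133) and rho = 0.26 (permutation p = 0.142), and Sesn2 had r = -0.10 (permutation p = 0.595) and rho = -0.17 (permutation p = 0.376). With stellate cell and fibroblast markers Cdkn1a had r = 0.50 (permutation p = 0.0075, adjusted 0.126) and rho = 0.53 (permutation p = 0.0039, adjusted 0.138), and r = 0.55 without the 2 farthest rats. In bulk liver a change in the share of a cell type and in RNA per cell cannot be told apart, and the part of these cells in the Cdkn1a values was not tested. All 10 stellate markers were measured and above the lowest array median, and their summed log2 level ran from 65.13 to 69.93 in vehicle rats and from 65.63 to 69.97 at 680 mg/kg.

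Mdm2 went with the other p53 targets and regulators at r = 0.50 (permutation p = 0.00789, adjusted 0.126) and rho = 0.51 (permutation p = 0.00744, adjusted 0.143), above 0 in 6 of 6 groups and 0.49 without the 2 farthest rats. The other members had a lower r with this list: 0.24 for Cdkn1a, 0.25 for Ccng1, 0.27 for Phlda3, 0.23 for Gdf15 and 0.18 for Sesn2. With genes of DNA damage sensing and repair Mdm2 had r = 0.56 (permutation p = 0.00387, adjusted 0.124) and rho = 0.62 (permutation p = 0.00041, adjusted 0.0394), the 1 relation of the 96 that passed on rank. Pearson r of this relation was above 0 in 5 of 6 groups and 0.54 without the 2 farthest rats, and rho was not computed without them. The p-values of r and of rho were adjusted separately, each over the 96 relations. The 96 relations used the brightest probe set of each member. They were not run again with other probe sets, with renewed normalisation or with each rat left out. Ccng1 had r = 0.61 with the same repair genes (permutation p = 0.00303, adjusted 0.124) and rho = 0.42 (permutation p = 0.0185, adjusted 0.254), but r = 0.37 without the 2 farthest rats. For the repair genes r was 0.33 with Cdkn1a, 0.37 with Phlda3, -0.14 with Gdf15 and 0.04 with Sesn2. Gdf15 was lower in rats with a larger 3 prime minus 5 prime difference of the beta-actin control, a measure of RNA integrity and labelling, at r = -0.47 (permutation p = 0.00584, adjusted 0.126) and rho = -0.46 (permutation p = 0.00915, adjusted 0.146). That relation was -0.36 without the 2 farthest rats, and the rat with the highest Gdf15, replicate 6 at 680 mg/kg, had the smallest such difference of the 35, 1.02. With the same difference of the Gapdh control, r was negative for every member, from -0.32 for Sesn2 to -0.06 for Gdf15.

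The genes most like each member over the 35 rats, by r of the same deviations among 9684 genes, are named as a description. For Cdkn1a they were Kif5b and Pcgf5 (r = 0.73 each) and Nmd3 (0.72). For Mdm2 they were Safb (0.71), Cep350 and Phf3 (0.68 each), and for Ccng1 they were Orc4 (0.81), Atp6v1d (0.79) and Ehmt1 (0.75). Phlda3 was most like Rbfox2 (0.68), Pdcl1-ps1 (0.66) and Mest (0.64). Gdf15 was most like Trappc6b (0.72), Rsbn1 (0.71) and Rab38 (0.68), and Sesn2 most like Gpm6a (0.68), Dapk2 (0.65) and Pced1b (0.63). No other member and no gene of the p53 list was among these 18.

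The other genes of the pathway were examined as a wider sign of genotoxic stress. Of 43 entries for further p53 targets and regulators, 34 were measured, and limma called 0 of 34 higher and 0 lower at each dose. At 680 mg/kg 18 were above vehicle and 16 below, with a median log2 difference of 0.0030 beside 0.0024 over all genes. At 0.07 mg/kg 11 were above and 23 below, with a median of -0.05. Of the 34, 29 had a mean above the lowest array median. Over all 5 doses the folds ran from 0.823 for Tp53inp1, at 68 mg/kg, to 1.18 for Foxo3, at 680 mg/kg. The mean level of Tp53inp1 was 4.19, under the array medians, so its fold is one of a signal not shown to lie over background. Zmat3, an RNA-binding p53 target, and Ppm1d, a phosphatase that switches p53 signalling off, had the smallest F test p-values of the list. Zmat3 was 0.879-fold (interval 0.809 to 0.956) at 0.07 mg/kg and 0.983-fold (interval 0.904 to 1.07) at 680 mg/kg, and Ppm1d was 0.887-fold and 1.05-fold (0.915 to 1.21) at these doses, and the adjusted p of limma's F test was 1.00 for both.

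Genes of DNA damage sensing and repair gave the same counts of calls, 0 higher and 0 lower of 24 measured at each dose. At 680 mg/kg 15 were above and 9 below vehicle, with a median of 0.01. Of the 24, 16 had a mean above the lowest array median, and the rest were not shown to be above background. Nbn, a subunit of the complex that senses double-strand breaks, and Topbp1, an activator of the kinase ATR, had the smallest F test p-values. Nbn was lowest at 0.69 mg/kg, 0.872-fold (interval 0.801 to 0.949), and 1.00-fold (0.921 to 1.09) at 680 mg/kg. Topbp1 was lowest at 6.88 mg/kg, 0.833-fold (0.738 to 0.940), and 0.948-fold (0.840 to 1.07) at 680 mg/kg. The intervals are unadjusted, and limma's adjusted p of the F test was 1.00 for both. The repair genes above vehicle numbered 12, 11, 8 and 9 at 0.07, 0.69, 6.88 and 68 mg/kg.

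**Figure D5:**
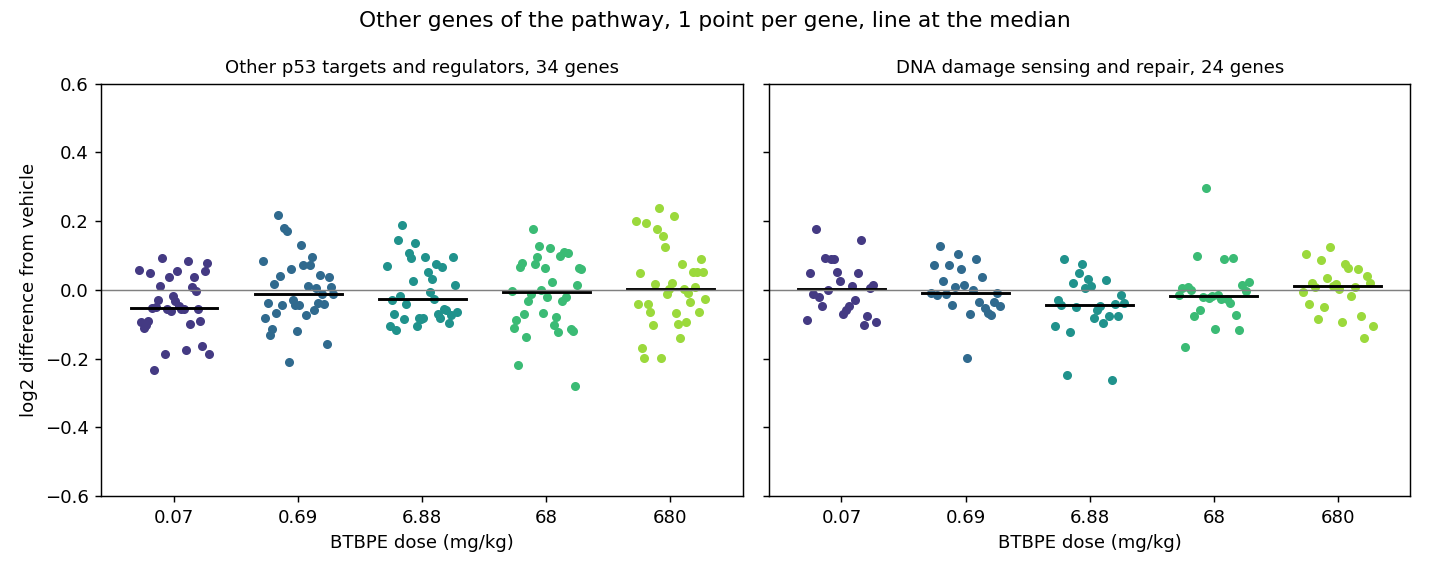
Log2 difference from vehicle of 34 other p53 targets and regulators (left) and 24 genes of DNA damage sensing and repair (right) at each BTBPE dose, 1 point per gene with a line at the median. Medians lie between -0.05 and 0.01 at all doses.

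Other gene groups, some holding genes that share regulators with single members, were then counted at every dose, and limma called 0 genes of any at any dose. The 20 ATF4 and endoplasmic reticulum stress genes are a mixed list, and only a part of it shares the regulator ATF4 with Gdf15 and Sesn2. Of the 20, 4, 9, 13, 5 and 7 were above vehicle from the lowest dose to the highest. Their median was 0.03 at 6.88 mg/kg and -0.17 at 680 mg/kg. Herpud1, which serves protein degradation at the endoplasmic reticulum, was lowest at 0.07 mg/kg, 0.846-fold (0.726 to 0.986), and 0.865-fold (0.742 to 1.01) at 680 mg/kg. Nupr1, a stress-induced chromatin protein, was 0.993-fold (0.738 to 1.34) at 6.88 mg/kg and 0.681-fold (0.506 to 0.916) at 680 mg/kg.

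Cell cycle genes, which p53 and p21 hold back, were above vehicle for 11, 20, 4, 7 and 10 of 26 from the lowest dose to the highest, so the count was lowest at 6.88 mg/kg, with 22 below, and highest at 0.69 mg/kg. At 6.88 mg/kg their median was -0.13. Of the 26, 16 had a mean above the lowest array median. Among rats of the same dose, Cdkn1a rose with the score of these genes at r = 0.39 (permutation p = 0.0358, adjusted 0.344), above 0 in 5 of 6 groups. The rho was 0.48 (permutation p = 0.00714, adjusted 0.143). For the other members r with this score ran from -0.16 for Sesn2 to 0.26 for Gdf15. Aurka, a kinase of mitosis with a mean level of 4.89, was 0.80-fold (0.681 to 0.941) at 6.88 mg/kg and 0.965-fold (0.821 to 1.13) at 680 mg/kg. Ccnb1, a cyclin of mitosis, had a mean level of 4.57, under the array medians, and read 4.52 in vehicle rats, 4.16 at 6.88 mg/kg and 4.54 at 680 mg/kg.

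Immediate early genes were above for 8, 10, 9, 15 and 8 of 20 in the same order of doses. Of the 20, 15 had a mean above the lowest array median. Gadd45b read 3.87 at 680 mg/kg against 4.19 in vehicle rats, below the array medians. Egr1, a transcription factor of the first response to growth signals, was 0.508-fold (0.251 to 1.03) at 0.69 mg/kg, 1.38-fold (0.659 to 2.89) at 68 mg/kg and 0.539-fold (0.267 to 1.09) at 680 mg/kg. Glucocorticoid and fasting genes were above for 3, 3, 7, 4 and 4 of 14. Cpt1a, which admits fatty acids to mitochondria, was lowest at 0.69 mg/kg, 0.803-fold (0.686 to 0.940), and 0.850-fold (0.726 to 0.995) at 680 mg/kg. Angptl4, an inhibitor of lipoprotein lipase, ran from 0.836-fold (0.658 to 1.06) at 0.69 mg/kg to 1.24-fold (0.979 to 1.58) at 6.88 mg/kg. NRF2 targets were above for 6, 7, 3, 6 and 6 of 12. Gstp1, a glutathione transferase, was 0.915-fold (0.830 to 1.01) at 6.88 mg/kg and 1.07-fold (0.971 to 1.18) at 680 mg/kg. Nqo1, a quinone reductase, was 0.928-fold (0.703 to 1.23) and 1.35-fold (1.02 to 1.78) at these doses.

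Markers of other liver cells stood beside these values as follows, with all doses set against the same vehicle rats. Kupffer cell and macrophage markers were above vehicle for 0, 0, 1, 0 and 0 of 10 measured from the lowest dose to the highest. Their summed log2 level was 80.49 to 86.72 in vehicle rats, 76.57 to 85.83 at 68 mg/kg and 80.93 to 85.76 at 680 mg/kg. Endothelial markers were above for 0 of 8 at each of the 4 lower doses and for 4 of 8 at 680 mg/kg, with a summed level of 59.58 to 60.63 in vehicle rats, 57.54 to 60.38 at 6.88 mg/kg and 59.39 to 61.61 at 680 mg/kg. Stellate markers were above for 4, 4, 5, 6 and 5 of 10, and lymphocyte markers for 1, 3, 3, 2 and 2 of 10. Cholangiocyte markers were above for 4, 2, 3, 3 and 1 of 6, blood markers for 3, 3, 1, 1 and 2 of 5 and neutrophil markers for 4, 4, 5, 3 and 4 of 5. Means above the lowest array median were held by 5 of 10 lymphocyte, 3 of 6 cholangiocyte, 4 of 5 blood and 1 of 5 neutrophil markers. The rest of these markers were not shown to be above background. Limma called 0 markers of any cell type at any dose, and the part of the markers in the members' values was not tested.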

How the data were processed

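The authors' deposited values were used as log2 RMA expression per probe set, made with RMA and the affy package per the submitters' processing notes, with versions not given in the sources used here and base 2 taken from RMA's convention. RMA's background and quantile steps compress differences of dim probe sets and would reduce a shift shared by most transcripts. The 57 control probe sets were left out. Genes were named from the platform annotation (20826 probe sets with 1 symbol, 436 with several, 9780 with none), checked by gene identifier against RefSeq GRCr8 (20758 matched). The brightest probe set by mean stands for a gene.

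One linear model with a coefficient per group was fitted to 35 arrays with limma 3.58.1 in R 4.3.3, with Benjamini-Hochberg adjustment over all probe sets at 0.05, in place of the R/maanova test that the series design names. The fit was tested on simulated data. Correlations used deviations from group means and 100000 shuffles of rats within groups. Other genes were named by a rule: of each pathway list, the 2 genes with the smallest F test p where none was called, and the 3 genes with the highest r for each member. List scores took genes above the lowest array median. The members and lists were chosen with earlier results of these data known. Alternatives covered normalisation, filters, the replicate number as a block, priors, weights, unmoderated tests, probe sets, dose scales and each rat left out.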

Additional observations from a re-analysis of the deposited data

How the results depend on the processing

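No count of calls changed under any alternative run: limma or the unmoderated analysis of variance called 0 probe sets at each dose, for the F test and for the slope, with a filter on dim probe sets, renewed quantile normalisation, median centring, a robust prior with an intensity trend, weights for arrays, 1 probe set per gene, only the groups compared, other dose scales or any rat left out. With the replicate number as a block the count was also 0. Rats with the same number did not pair: their deviations correlated at a mean of -0.0089, above 0.1 in 8 of 85 pairs, and 5 of 35 rats matched best with their own number. Small differences turned in sign. Renewed quantile normalisation gave -0.0066 for Mdm2 at 68 mg/kg, median centring gave 0.0016 for Ccng1 at 0.07 mg/kg, and weighting arrays gave 0.017 for Ccng1 and -0.011 for Gdf15 at 0.07 mg/kg and -0.0065 for Sesn2 at 68 mg/kg (log2). Other probe sets gave 0.039 for Cdkn1a at 68 mg/kg, 0.13, 0.17, 0.13 and 0.18 for Mdm2 at 0.07, 0.69, 6.88 and 680 mg/kg with a slope of 0.027, and -0.047, -0.10 and -0.020 for Sesn2 at 6.88, 68 and 680 mg/kg with a slope of -0.012. Leaving out 1 rat at a time, log2 differences ranged from -0.061 to 0.051 and -0.16 to 0.016 for Cdkn1a at 0.69 and 68 mg/kg, from -0.059 to 0.010 and -0.033 to 0.036 for Mdm2 at these doses, from -0.047 to 0.062 and -0.012 to 0.032 for Ccng1 at 0.07 and 6.88 mg/kg, from -0.014 to 0.12 and -0.0055 to 0.13 for Phlda3 at 0.07 and 68 mg/kg, from -0.097 to 0.067 and -0.13 to 0.25 for Gdf15 at 0.07 and 680 mg/kg, and from -0.023 to 0.076 and -0.011 to 0.12 for Sesn2 at 68 and 680 mg/kg. Slopes ranged from -0.0084 to 0.00072 for Mdm2, from -0.0021 to 0.016 for Sesn2 and, without a change of sign, from 0.00030 to 0.052 for Gdf15. Counts of members above vehicle ranged from 2 to 5 at 0.07 mg/kg and from 3 to 5 at 68 mg/kg, an alternative chosen after the data had been seen. Among correlations, quantile normalisation gave -0.066 for Cdkn1a with Mdm2, 0.0076 for Cdkn1a with Gdf15, -0.13 for Mdm2 with Ccng1 and -0.056 for Mdm2 with Sesn2, and the replicate block gave 0.022 for Gdf15 with Sesn2. Probe set 1383288_at gave -0.32 for Mdm2 with Gdf15 and -0.18 with Sesn2, 1383485_at gave -0.12 with Ccng1, and 1396901_at gave -0.18, 0.23 and -0.085 for Sesn2 with Cdkn1a, Ccng1 and Phlda3. With 1 rat left out r ranged from -0.084 to 0.057 for Cdkn1a with Gdf15, -0.064 to 0.14 for Mdm2 with Sesn2, -0.020 to 0.13 for Phlda3 with Sesn2 and -0.098 to 0.12 for Gdf15 with Sesn2. The cause of these turns was not tested. Gdf15 and the second probe sets of Cdkn1a and Sesn2 lie near or under the array medians, where signal over background limits what can be read.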
